A study of Mus musculus with 6 samples.

Results

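The mature neutrophil granule and cytosolic genes examined here were *Ltf*, *Camp*, *Ngp*, *Lcn2*, *Retnlg*, *S100a8*, *S100a9*, *Chil3*, *Cd177* and *Ly6g*. They were selected by gene symbol, as known markers of maturing neutrophils and with earlier results of these data known, and made up 10 of the 56980 genes listed for the series. The primary granule genes *Mpo* and *Elane* were set beside them. RNA-Seq had been performed on BM MSCs, stromal cells that adhere to plastic in marrow culture, from female mice that underwent ovariectomy (OVX) at 8 weeks of age. Their gut microbiota was depleted with antibiotics, and they then received fecal microbiota transplantation (FMT) for 8 weeks, from sedentary donors in the TranspCtrl group (n = 3) and from treadmill-exercised donors in the TranspExer group (n = 3). OVX, antibiotic depletion and FMT itself were thus shared by both groups, and the groups differed by the donors. Flushed marrow of the femurs and tibias was cultured for 7 days with repeated washes, and no sorting step was described. The labels do not say whether the samples came from separate animals or cultures, so p-values measure only the spread between these samples, which may be technical.

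Neutrophils fill their granules in sequence as they mature in the marrow. Promyelocytes make the primary (azurophil) granules, which hold myeloperoxidase and serine proteases. Myelocytes and metamyelocytes then make the secondary granules, whose lactoferrin, cathelicidin and lipocalin-2 define the next stage, and the cytosol and surface of the late cells fill with the S100A8/S100A9 complex and Ly6G. The 10 genes therefore mark later stages of the lineage than *Mpo* and *Elane*. Several are not confined to neutrophils: monocytes also make *S100a8* and *S100a9*, macrophages can make *Chil3*, and stromal cells can make *Lcn2*. In bulk RNA, fewer cells of a type and less RNA per cell cannot be told apart.

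The genes lay on 6 chromosomes of mm10, and none overlapped another annotated gene. *Camp*, *Ngp* and *Ltf* lay within 1195389 bases of chromosome 9, and *S100a8* and *S100a9* within 26744 bases of chromosome 3. Promoter windows of 300 bases, from 250 before to 50 after the RefSeq start (GRCm38.p6), were searched on both strands for a C/EBP motif, TTGCNNAA, and a PU.1 motif, GAGGAAG, and no match of one overlapped a match of the other in the windows shown. C/EBP factors and PU.1 are transcription factors of the granulocyte lineage. The C/EBP letters were in windows of 6 of the 10 genes (*Lcn2*, *Ltf*, *Ly6g*, *Ngp*, *Retnlg* and *S100a9*) and in 10.8% of 32851 windows genome-wide. The PU.1 letters were in windows of 3 of the 10 (*Lcn2*, *Ly6g* and *S100a8*) and in 13.6% of all windows. Of the 5 primary granule genes with a window, 1 held the C/EBP letters and 4 held the PU.1 letters, *Mpo* and *Elane* among the latter. The motifs were chosen with results of these data known, and a match is a description, not a binding site. The windows of the mature genes with the highest and the lowest log2 fold change, *Ngp* (chr9:110419558-110419857, plus strand) and *Ly6g* (chr15:75155011-75155310, plus strand), are shown with those of *Mpo* (chr11:87793534-87793833, plus strand) and *Elane* (chr10:79886062-79886361, plus strand), 5′ to 3′, with either motif in capitals on whichever strand it was found:
Ngp: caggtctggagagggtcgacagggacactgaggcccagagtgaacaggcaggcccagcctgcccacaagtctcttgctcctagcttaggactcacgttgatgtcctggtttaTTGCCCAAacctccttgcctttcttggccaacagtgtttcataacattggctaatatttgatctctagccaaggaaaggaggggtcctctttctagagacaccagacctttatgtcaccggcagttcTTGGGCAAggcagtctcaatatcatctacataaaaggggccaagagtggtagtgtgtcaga
Ly6g: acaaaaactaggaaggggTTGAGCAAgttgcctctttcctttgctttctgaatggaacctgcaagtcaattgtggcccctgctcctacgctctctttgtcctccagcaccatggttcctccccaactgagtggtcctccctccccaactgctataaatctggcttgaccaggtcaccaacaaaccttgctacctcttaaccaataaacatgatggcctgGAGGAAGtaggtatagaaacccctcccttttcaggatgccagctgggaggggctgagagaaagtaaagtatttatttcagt
Mpo: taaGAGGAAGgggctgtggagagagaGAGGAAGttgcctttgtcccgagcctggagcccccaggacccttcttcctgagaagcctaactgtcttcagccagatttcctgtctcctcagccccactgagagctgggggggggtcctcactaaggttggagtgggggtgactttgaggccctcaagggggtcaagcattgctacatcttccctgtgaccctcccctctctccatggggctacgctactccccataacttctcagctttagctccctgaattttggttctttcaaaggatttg
Elane: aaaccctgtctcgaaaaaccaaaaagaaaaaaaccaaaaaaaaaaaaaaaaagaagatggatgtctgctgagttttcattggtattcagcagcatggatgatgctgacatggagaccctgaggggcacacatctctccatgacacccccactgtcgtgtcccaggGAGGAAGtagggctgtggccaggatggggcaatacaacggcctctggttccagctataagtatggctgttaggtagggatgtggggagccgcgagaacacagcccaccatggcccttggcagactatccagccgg
In *Ngp*, the C/EBP letters began 138 and 11 bases before the start. In *Ly6g*, whose 2 RefSeq starts gave 2 windows, the C/EBP letters began 232 bases and the PU.1 letters 31 bases before the start of the window shown. The PU.1 letters began 247 and 224 bases before the start in *Mpo* and 85 bases before it in *Elane*.

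Total counts ranged from 17647638 to 21319166 per sample, and 3 counts, the floor used here, equalled 0.139 to 0.174 CPM (counts scaled to the library total with TMM factors). This floor covers only counting error. TranspCtrl replicate 1 stood apart from its group: the mean chi-square per gene was 59.3 and 54.1 against TranspCtrl replicates 2 and 3, which differed from each other by 3.79, while pairs of TranspExer samples differed by 4.45 to 7.85. Values without it are given beside the calls at the adjusted p-value that it changed. The samples were not stromal cells alone. The summed level of 12 monocyte and macrophage markers was 14212, 9147 and 9462 CPM in TranspCtrl replicates 1, 2 and 3 and 7369 to 8061 CPM in the TranspExer samples, and that of 10 stromal markers was 11934, 19666 and 18980 CPM in TranspCtrl and 12568 to 13806 CPM in TranspExer. Both sums rest on their most abundant genes. Without the lysozyme gene *Lyz2*, the other 11 monocyte and macrophage markers summed to 5110, 4252 and 4225 CPM in TranspCtrl and 4773 to 4951 CPM in TranspExer, and of all 12 markers 6 had a higher and 6 a lower value in TranspExer, with a median log2 fold change of -0.00795 (0.14 without TranspCtrl replicate 1). At the edgeR adjusted p-value alone, 3 of them were higher and 3 lower, or 6 higher and 3 lower without that sample. Without the collagen genes *Col1a1* and *Col1a2*, the other 8 stromal markers summed to 2239, 2365 and 2338 CPM in TranspCtrl and 1699 to 1715 CPM in TranspExer, and of all 10 markers 1 was higher and 7 lower at the adjusted p-value alone, or 1 and 9 without TranspCtrl replicate 1. Erythroid genes were at or below 0.894 CPM in sum. Other marker lists also moved with the groups. Of all tested genes, 16.6% were higher and 15.5% lower at the edgeR adjusted p-value alone, or 22.1% and 20.4% without TranspCtrl replicate 1. At the edgeR adjusted p-value alone, 5 of 5 endothelial genes were higher in TranspExer (summed level 166 to 202 CPM in TranspCtrl and 519 to 562 CPM in TranspExer), as were 5 of 6 genes of eosinophils, basophils and mast cells (34.1 to 49.6 and 112 to 122 CPM, and 6 of 6 genes without TranspCtrl replicate 1), and 6 of 6 genes of B and plasma cells were lower (1700 to 2077 and 490.1 to 549.9 CPM). Of 4 megakaryocyte genes 2 were higher (243 to 309 and 431 to 464 CPM), and 4 without TranspCtrl replicate 1. Of 3 pan-leukocyte genes 2 were higher (1094 to 1636 and 2459 to 2641 CPM), and without the most abundant, *Laptm5*, the sums were 460 to 467 and 532 to 544 CPM. Of 5 T and NK cell genes 1 was higher and 1 lower, or 1 and 2 without TranspCtrl replicate 1 (12.5 to 16.2 and 23.2 to 25.8 CPM), and without *Nkg7* the sums were lower in TranspExer, at 5.96 to 8.78 and 5.28 to 5.86 CPM. The part of these cell types in the results was not tested.

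All 10 mature genes passed the low-count filter, and none was at 0 in any sample. Levels per transcript length (TPM) put them in order. *S100a9* was the highest, with a mean of 3670 TPM over the 6 samples and a range of 2788 to 5350, followed by *Ngp* at 2814 TPM (2243 to 3498), *S100a8* at 1584 TPM (1086 to 2552) and *Chil3* at 1124 TPM (994 to 1249). The ranges of neighbours in that order overlapped for these 4 genes. *Lcn2* (664 TPM, 569 to 769.9), *Ltf* (415 TPM, 399 to 435) and *Camp* (327 TPM, 242 to 382) came next, and none of their ranges touched its neighbour's. *Retnlg* (68.3 TPM, 51.3 to 88.1) and *Cd177* (65.4 TPM, 58.1 to 70.9) overlapped, and *Ly6g* was the lowest, at 8.2 TPM (5.82 to 10.9). On the same scale, *Mpo* was at 115, 187 and 194 TPM in TranspCtrl and 839, 877 and 966 TPM in TranspExer. It lay below *Camp* in every TranspCtrl sample and above *Lcn2* and *Ltf* in every TranspExer sample. Together the 10 genes took 0.554%, 0.39% and 0.435% of the counts of TranspCtrl replicates 1, 2 and 3, and 0.528%, 0.511% and 0.489% of those of TranspExer replicates 1, 2 and 3.

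FMT from exercised donors was compared with FMT from sedentary donors for every gene. No mature granule or cytosolic gene was a DEG (edgeR's quasi-likelihood test, adjusted p-value under 0.05 and a fold change of at least 2). *Ngp*, *Lcn2* and *Chil3* passed the adjusted p-value alone and were 1.45, 1.27 and 1.23-fold higher in TranspExer, *Ly6g* was lower at 0.686 of the TranspCtrl level, and the other 6 did not pass. Over the same samples, all 6 genes of the primary granule list rose between 2.62 and 5.54-fold. They are called primary granule genes here, although the lowest, *Ms4a3*, encodes a membrane protein. Counts of 0 of 10 higher and 0 of 10 lower stood against 3.5% and 5.28% of the 15190 tested genes that were upregulated and downregulated DEGs. At the adjusted p-value alone, 3 of 10 were higher and 1 of 10 lower, against 16.6% and 15.5% of tested genes, and 4 of 10 had an unadjusted p-value under 0.05, the same number as with DESeq2, against 44.4% of tested genes. Leaving out single samples moved the count of higher genes between 1 and 6 and that of lower genes between 0 and 1. The groups did not overlap for 4 of the 10 genes, against 52.4% of all genes. The 95% intervals of all 10 log2 fold changes lay within a 2-fold change in either direction, as did those of 72.7% of tested genes.

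**Figure D1:**
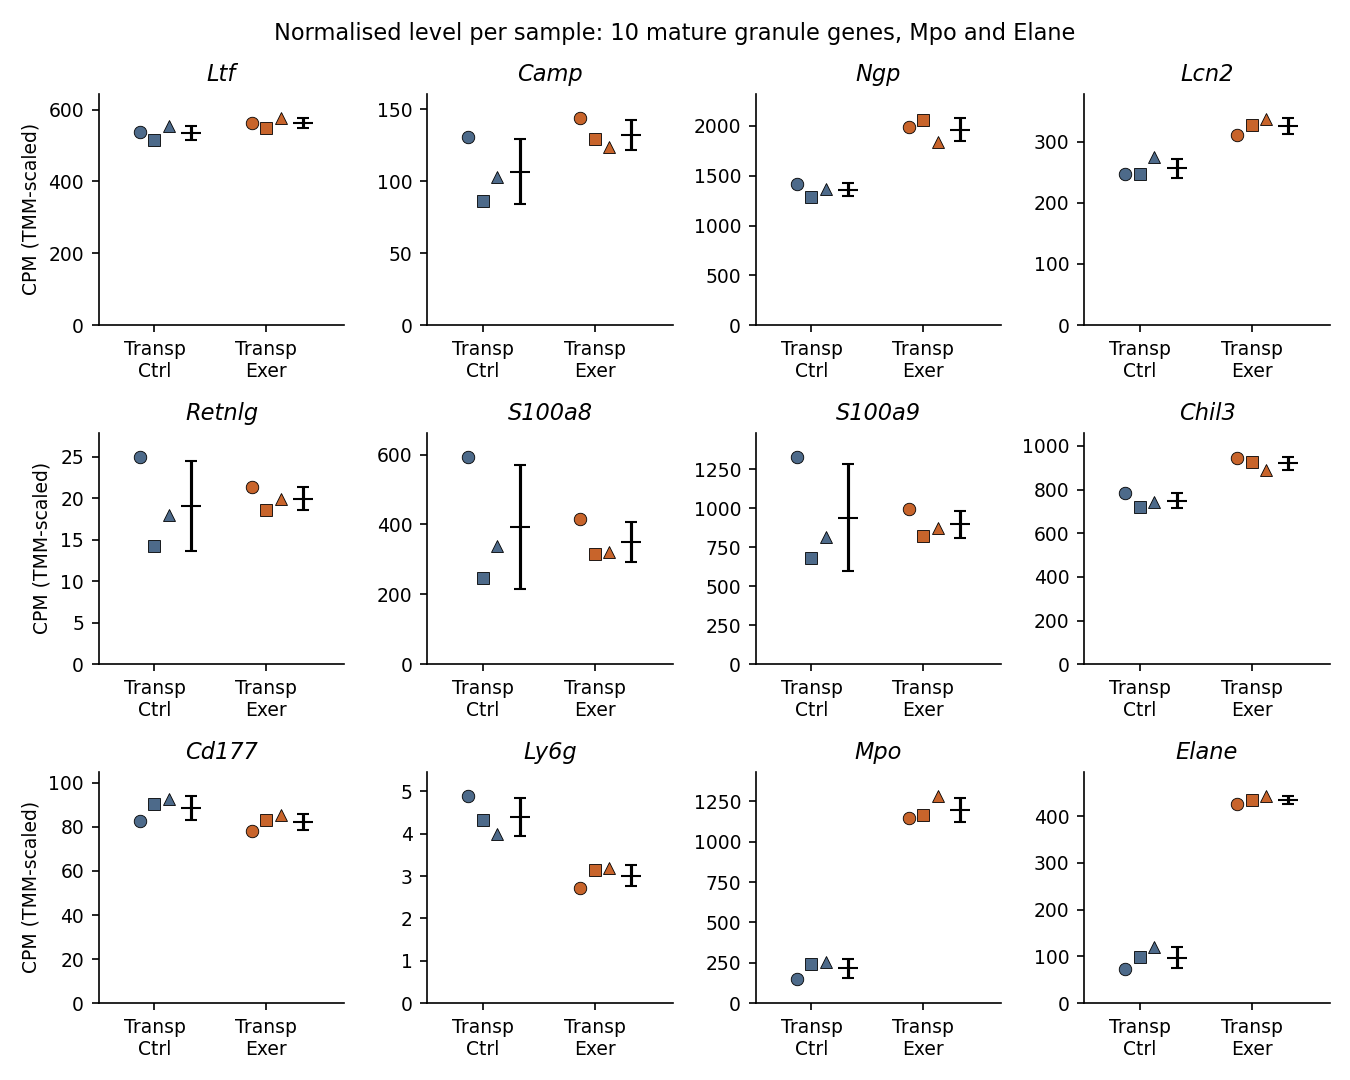
Normalised level (CPM, TMM-scaled, linear axes from 0) of the 10 mature genes, *Mpo* and *Elane* in each sample, with circles, squares and triangles for replicates 1, 2 and 3, blue for TranspCtrl and orange for TranspExer, and the mean ± SD beside the points. The groups are separated about 5.54-fold for *Mpo* and 4.46-fold for *Elane*, and TranspCtrl replicate 1 is the highest sample for *S100a8*, *S100a9*, *Retnlg* and *Ly6g*.

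Among the secondary granule genes, *Ngp*, which encodes the cathelicidin-like neutrophilic granule protein, was at 1414, 1287 and 1372 CPM in TranspCtrl replicates 1, 2 and 3 and at 1989, 2061 and 1837 CPM in TranspExer replicates 1, 2 and 3. All TranspExer samples lay above all TranspCtrl samples, with means of 1962 ± 114 and 1357 ± 64.9 CPM (SD, n = 3 each). The log2 fold change was 0.53 (SE 0.09, 95% interval 0.32 to 0.74), with an edgeR adjusted p-value of 0.00386. *Ngp* passed the adjusted p-value in each of the 12 alternative fits without a fold threshold, and made up 27.5% to 33.1% of the counts of the 10 genes in TranspCtrl and 36.3% to 39.4% in TranspExer.

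*Lcn2*, which encodes the iron-siderophore carrier lipocalin-2, was at 247, 247 and 274 CPM in TranspCtrl and 311, 327 and 337 CPM in TranspExer, and the groups did not overlap. Its log2 fold change was 0.34 (SE 0.08, edgeR adjusted p-value 0.0162), with means of 256 ± 15.8 and 325 ± 13 CPM. *Chil3*, which encodes the chitinase-like lectin Ym1, was at 785, 718 and 744 CPM in TranspCtrl and 943, 927 and 888 CPM in TranspExer. Again the groups did not overlap, with a log2 fold change of 0.30 (SE 0.08, edgeR adjusted p-value 0.0267). This call was lost when any sample other than TranspCtrl replicate 1 was left out. The near-identical copy *Chil4* had 1 to 8 counts per sample, so few reads of *Chil3* could have been assigned to it. For *Lcn2*, the call was lost without TranspCtrl replicate 2 (adjusted p-value 0.0552), TranspExer replicate 2 (0.073) or TranspExer replicate 3 (0.074) in the same edgeR test.

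*Ltf*, which encodes the iron-binding lactoferrin, was at 538, 514 and 554 CPM in TranspCtrl and 562, 549 and 576 CPM in TranspExer. The groups overlapped, and the log2 fold change was 0.07 (95% interval -0.11 to 0.25, edgeR adjusted p-value 0.506). *Camp*, which encodes the antimicrobial cathelicidin, was at 131, 86 and 103 CPM in TranspCtrl and 144, 129 and 124 CPM in TranspExer. TranspCtrl replicate 1 lay above the TranspExer samples 2 and 3 while the other TranspCtrl samples lay below all TranspExer samples. The log2 fold change of *Camp* was 0.31 (95% interval -0.03 to 0.65, edgeR adjusted p-value 0.14) and was 0.48 without TranspCtrl replicate 1, with an adjusted p-value of 0.000362.

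*Cd177*, which encodes a GPI-anchored protein of secondary granules and the neutrophil surface, was at 82.6, 90.4 and 92.8 CPM in TranspCtrl and 78.3, 82.9 and 85.3 CPM in TranspExer. The groups overlapped, and its log2 fold change was -0.11 (95% interval -0.29 to 0.07, edgeR adjusted p-value 0.323). *Retnlg*, a resistin-like secreted protein gene of neutrophils, was at 25, 14.3 and 18 CPM in TranspCtrl and 21.4, 18.6 and 19.9 CPM in TranspExer. The TranspExer samples lay inside the range of the TranspCtrl samples, with a log2 fold change of 0.07 (95% interval -0.37 to 0.50, edgeR adjusted p-value 0.807). Without TranspCtrl replicate 1, the edgeR values were -0.16 (adjusted p-value 0.0428) for *Cd177* and 0.30 (adjusted p-value 0.0441) for *Retnlg*.

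The cytosolic pair *S100a8* and *S100a9*, whose products form the calcium-binding complex calprotectin, had the widest spread within TranspCtrl. *S100a8* was at 592, 248 and 337 CPM in TranspCtrl replicates 1, 2 and 3 and at 415, 314 and 320.3 CPM in TranspExer. *S100a9* was at 1325, 679 and 812 CPM in TranspCtrl and at 992, 824 and 875 CPM in TranspExer. For both genes TranspCtrl replicate 1 was the highest and TranspCtrl replicate 2 the lowest of the 6 samples, with the TranspExer samples between them. The log2 fold changes were -0.17 (95% interval -0.83 to 0.50, edgeR adjusted p-value 0.681) for *S100a8* and -0.07 (95% interval -0.59 to 0.46, edgeR adjusted p-value 0.841) for *S100a9*. Without TranspCtrl replicate 1 both turned positive, at 0.25 (edgeR adjusted p-value 0.12) and 0.26 (edgeR adjusted p-value 0.0195). The direction for this pair was thus set by 1 sample.

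*Ly6g*, which encodes the GPI-anchored surface antigen used to identify mouse neutrophils, was low in all samples, with 100, 84 and 86 counts in TranspCtrl and 52, 54 and 64 counts in TranspExer. Its level was 4.88, 4.31 and 4 CPM in TranspCtrl and 2.72, 3.14 and 3.18 CPM in TranspExer, and the groups did not overlap. It was lower in TranspExer, with a log2 fold change of -0.54 (SE 0.16, 95% interval -0.92 to -0.17, edgeR adjusted p-value 0.0375), opposite in sign to *Ngp*, *Lcn2* and *Chil3*. The call was lost when any 1 sample was left out (edgeR adjusted p-values 0.0544 to 0.118), while the log2 fold change stayed between -0.47 and -0.61.

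**Figure D2:**
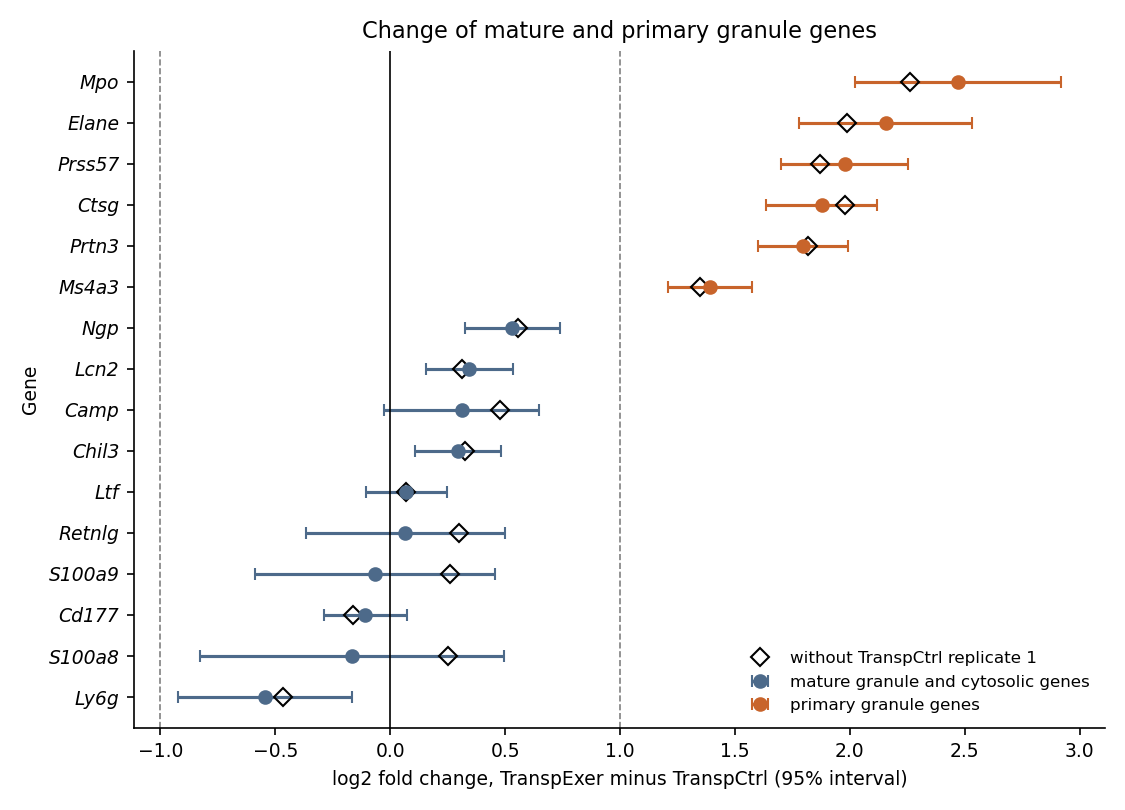
Log2 fold change (TranspExer minus TranspCtrl) of the 10 mature genes in blue and the 6 primary granule genes in orange, with 95% intervals from the edgeR fit, and open diamonds for the values without TranspCtrl replicate 1. Dashed lines mark a 2-fold change: the mature genes lie between -0.54 and 0.53 with all intervals inside the lines, and the primary granule genes lie between 1.39 and 2.47, with all intervals beyond the upper line.

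In TranspCtrl replicate 1, *S100a8* was 2.02 times, *S100a9* 1.78 times, *Retnlg* 1.55 times and *Camp* 1.38 times the mean of TranspCtrl replicates 2 and 3, whereas the other 6 genes were at 0.902 to 1.18 times that mean. Ratios above 1.5 were found for 3 of the 10 genes and for 9.02% of all tested genes. Of the 12 monocyte and macrophage markers, 7 (*Lyz2* among them) were highest and 2 lowest in this sample, and of the 10 stromal markers 3 were highest and 3 lowest. Their part in these values was not tested. The median log2 fold change of the 10 genes was 0.07 with all samples and 0.28 without TranspCtrl replicate 1, beside medians of -0.02 and -0.00465 over all tested genes in the same fits. Without this sample, 6 of the genes (*Ngp*, *Camp*, *Chil3*, *Lcn2*, *S100a9* and *Retnlg*) passed the edgeR adjusted p-value as higher and *Cd177* as lower, against 22.1% and 20.4% of tested genes in the same fit, and none reached a 2-fold change.

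*Mpo*, which encodes the peroxidase of the primary granules, was at 151, 241 and 257 CPM in TranspCtrl and at 1147, 1163 and 1281 CPM in TranspExer. The groups were far apart, with means of 216 ± 57.2 and 1197 ± 73.3 CPM (SD, n = 3 each), and the log2 fold change was 2.47 (SE 0.19, edgeR adjusted p-value 0.000123). *Elane*, which encodes neutrophil elastase, was at 73.9, 99.1 and 119.5 CPM in TranspCtrl and at 427, 435 and 442 CPM in TranspExer. It too rose, by a log2 fold change of 2.16 (SE 0.16, edgeR adjusted p-value 0.000105). TranspCtrl replicate 1 was the lowest sample for both genes, the reverse of its place for *S100a8* and *S100a9*. Without it, the log2 fold changes were 2.26 and 1.99. The other primary granule and promyelocyte genes, the serine proteases *Prtn3* (log2 fold change 1.79), *Ctsg* (1.88) and *Prss57* (1.98) and the membrane protein gene *Ms4a3* (1.39), were upregulated DEGs as well. *Prtn3* and *Prss57* are overlapped on the opposite strand by *Plppr3* (171 to 257 counts per sample) and *Fstl3* (313 to 531), and *Mpo* by *Gm11505* (1 to 5). How the counting assigned such reads is not given in the sources used here.

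Dividing each mature gene by *Mpo* or *Elane* within a sample removes the scaling between libraries. Because both denominators rose more than any of the 10 genes, all 20 ratios were lower in TranspExer with no overlap between the groups, as were the ratios of 98.8% of all tested genes to *Mpo* and of 98.1% to *Elane*. The ratios are therefore a description of the proportions of counts in each sample, and counts were not divided by gene length. Each gave p = 0.1 in a two-sided exact permutation test (adjusted over the 20 pairs, 0.1), the smallest value that 3 samples against 3 allow. There were 9.38, 5.34 and 5.35 counts of *Ngp* per count of *Mpo* in TranspCtrl, and 1.73, 1.77 and 1.43 in TranspExer. The ratio for *Ltf* was 3.57, 2.13 and 2.16 in TranspCtrl and 0.49, 0.472 and 0.45 in TranspExer, and so passed from above to below 1 count of *Ltf* per count of *Mpo*. The ratio for *S100a8* was 3.93, 1.03 and 1.31 in TranspCtrl and 0.362, 0.27 and 0.25 in TranspExer. Per length, however, *S100a8* was at 1719, 1340 and 1366 TPM in TranspExer, above *Mpo* at 839, 877 and 966 TPM. Across the 10 genes, the difference in log2 ratio to *Mpo* ranged from -1.97 for *Ngp* to -3.05 for *Ly6g*, and that to *Elane* from -1.65 for *Ngp* to -2.73 for *Ly6g*. Summed over genes, there were 14.6, 8.48 and 8.61 counts of the 10 mature genes per count of the 6 primary granule genes in TranspCtrl, and 2.72, 2.6 and 2.38 in TranspExer. The mature genes summed to 5145, 3888 and 4310 CPM in TranspCtrl and 5457, 5237 and 5066 CPM in TranspExer, and the primary granule genes to 352, 458 and 501 CPM and to 2004, 2014 and 2126 CPM. The summed level of the primary granule genes did not overlap between the groups, and that of the mature genes overlapped through TranspCtrl replicate 1, the other TranspCtrl sums lying below all TranspExer sums.

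**Figure D3:**
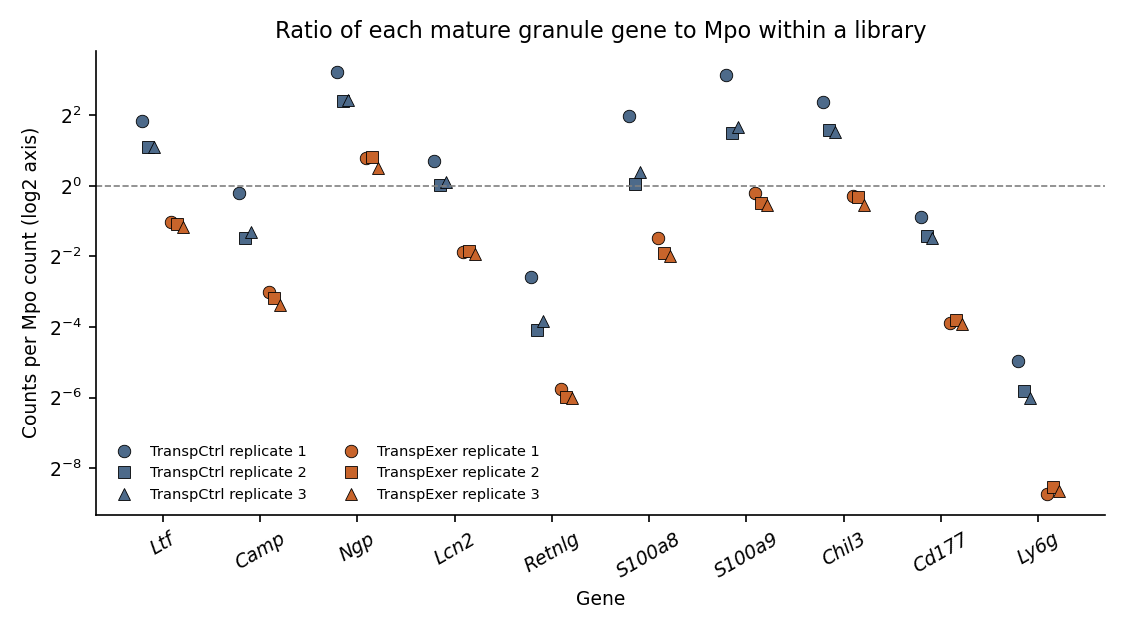
Counts of each mature gene per count of *Mpo* within each sample, not divided by gene length, on a log2 axis. Blue symbols are TranspCtrl, orange symbols are TranspExer, and the dashed line marks a ratio of 1. For each gene the 3 TranspExer samples lie below the 3 TranspCtrl samples, as they do for 98.8% of all tested genes, and TranspCtrl replicate 1 is the highest, as for *Ngp* with 9.38 beside 5.34 and 5.35.

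The other secondary and tertiary granule genes also split, and which cell types of these mixed samples carried them was not tested. Of 12 tested, none was an upregulated DEG and 1 was a downregulated DEG. At the adjusted p-value alone, 5 were higher and 2 lower, against 16.6% and 15.5% of all tested genes. The median log2 fold change of the list was 0.13. The downregulated gene was *Mmp9*, gelatinase B of the tertiary granules, which is also made by macrophages and osteoclasts. Its level was 230.0, 346 and 333 CPM in TranspCtrl and 53.4, 59.2 and 57.2 CPM in TranspExer, a log2 fold change of -2.42 (edgeR adjusted p-value 6.5e-05). *Mmp8*, the neutrophil collagenase of the secondary granules, was at 65.4, 65.7 and 68.4 CPM in TranspCtrl and 59.8, 61.7 and 59.5 CPM in TranspExer, with a log2 fold change of -0.14 that did not pass the test (edgeR adjusted p-value 0.146). Without TranspCtrl replicate 1 it was -0.16 and passed (edgeR adjusted p-value 0.0411), which made 3 genes of the list lower in place of 2.

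Other late neutrophil surface and cytosolic genes were listed as 26 symbols, of which 24 were matched and 21 tested. The stefin genes *Stfa1*, *Stfa2* and *Stfa3* were below the filter. DEGs were 3 higher (the IgG receptor gene *Fcgr4*, log2 fold change 1.26, *Cd300ld*, 1.09, and the glycoprotein gene *Lrg1*, 1.01) and 2 lower (the C-type lectin gene *Clec4e*, -1.65, and *Ifitm6*, -1.02). Which cell types of these mixed samples carried them was not tested. At the adjusted p-value alone, 6 were higher and 6 lower, or 9 and 6 without TranspCtrl replicate 1. Of all tested genes, 16.6% were higher and 15.5% lower, or 22.1% and 20.4% without that sample. The median log2 fold change of the list was -0.18, or 0.21 without that sample. Without that sample, *Lrg1* (0.77) and *Ifitm6* (-0.56) no longer reached a 2-fold change. *Cxcr2*, the chemokine receptor by which mature neutrophils leave the marrow, was lower (log2 fold change -0.56, edgeR adjusted p-value 0.0131), as *Ly6g* was, and *Csf3r*, the G-CSF receptor gene carried from the progenitor stage on, was higher (0.53, edgeR adjusted p-value 0.00161).

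Among 7 granulocyte transcription factor genes, 1 was an upregulated DEG and none a downregulated one, and 4 were higher and none lower at the adjusted p-value alone, with a median log2 fold change of 0.50. Without TranspCtrl replicate 1, 4 were higher and 1 was lower. Of all tested genes, 16.6% were higher and 15.5% lower, or 22.1% and 20.4% without that sample. The DEG was *Gfi1*, a repressor needed for neutrophil differentiation, with a log2 fold change of 1.10 (edgeR adjusted p-value 0.000488). *Cebpe*, which drives the secondary granule genes, was at 14.9, 12.2 and 13.4 CPM in TranspCtrl and 22.7, 21.2 and 19.9 CPM in TranspExer, with no overlap and a log2 fold change of 0.66 (edgeR adjusted p-value 0.00373). *Cebpa*, which drives the earlier commitment to the granulocyte lineage, had a log2 fold change of 0.80 (edgeR adjusted p-value 0.013). The study treated *Cebpa* as an adipogenic marker and reported its mRNA as reduced in TranspExer MSCs, the opposite direction.

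Of 8 neutrophil production and retention signals, 7 were tested, and 4 were downregulated DEGs with no upregulated one. These were *Csf2*, which encodes GM-CSF (log2 fold change -2.89), and the neutrophil-attracting chemokine genes *Cxcl3* (-2.18), *Cxcl5* (-2.04) and *Cxcl1* (-1.78, or -1.14 without TranspCtrl replicate 1). All 4 were low, and *Csf2* was between 0 and 0.781 CPM in every sample, so its fold rests on few counts. At the adjusted p-value alone, 6 were lower and 1 higher, against 15.5% and 16.6% of all tested genes. The median of the list was -1.78, or -1.14 without TranspCtrl replicate 1. *Csf3*, the gene of the main neutrophil growth factor G-CSF, was not tested, since no sample held more than 1 count of it. Of 7 receptors of the encoded proteins (such as the S100A8/S100A9 receptors and the lactoferrin receptor), 6 were tested and none was a DEG in the edgeR test, and 5 had an unadjusted p-value under 0.05, as did 44.4% of all tested genes. Their log2 fold changes ran from -0.53 to 0.87, with 2 higher and 1 lower at the adjusted p-value alone, against 16.6% and 15.5% of all tested genes.

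**Figure D4:**
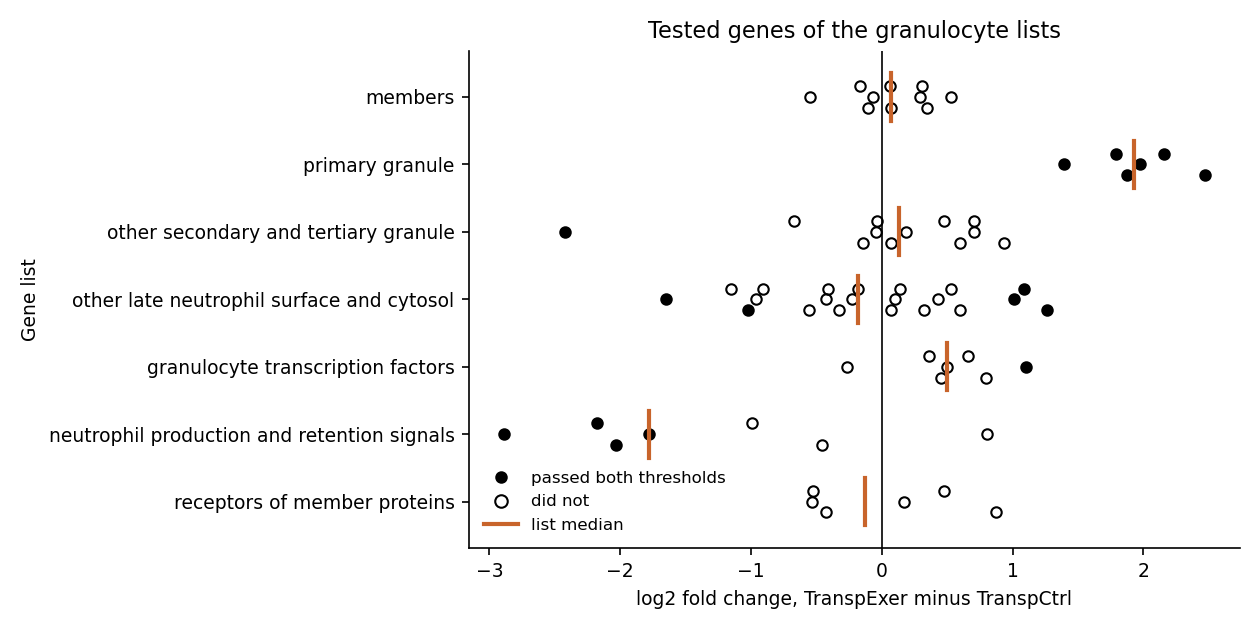
Log2 fold change (TranspExer minus TranspCtrl) of each tested gene of the 7 granulocyte lists, with filled points for DEGs (edgeR adjusted p-value under 0.05 and a fold change of at least 2), open points for the others and an orange bar for the list median. All 6 primary granule genes are filled, at 1.39 to 2.47, and all 10 mature genes are open, at -0.54 to 0.53.

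The 10 genes did not share one profile. On centred log2 CPM over the 6 samples, their root mean square difference from their own mean profile ranged from 0.108 for *Ltf* to 0.335 for *Ly6g*, with *S100a8* at 0.288 and *Ngp* at 0.238. The mean profile was highest in TranspCtrl replicate 1 (0.17) and lowest in TranspCtrl replicate 2 (-0.23), with the TranspExer samples at 0.02 to 0.09. Among 9666 other genes with a mean of at least 10 CPM, the 10 closest to that mean profile were *Inip*, *Exosc2*, *Hmox2*, *Rpf2*, *Abcg3*, *Lsm4*, *Alox5ap*, *Atp6v1h*, *Tec* and *Ciao2a*, at 0.026 to 0.0408. None of the 10 was a DEG, which follows from their selection on that profile.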

How the data were processed

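The RNA-Seq data of BM MSCs held 3 TranspCtrl and 3 TranspExer samples, grouped by the sample titles. The authors deposited estimated counts (expected counts per gene, not normalized, not all whole numbers) for 56980 genes with gene lengths. The submitters' processing notes name mm10, and the aligner and the counting tool are not given in the sources used here. Counts were rounded. edgeR 4.0.16 in R 4.3.3 (filterByExpr, TMM, quasi-likelihood test, condition only) was run on 15190 genes with Benjamini-Hochberg adjustment, and was tested on simulated data. Genes were DEGs at an adjusted p-value under 0.05 with a fold change of 2 or more, the thresholds of the study's methods. CPM were TMM-scaled, and TPM used the deposited lengths. Depth was 17647638 to 21319166 counts per sample, so that 3 counts equalled at most 0.174 CPM.

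The genes and the lists were chosen with earlier results of these data known. Each of the 10 genes, *Mpo* and *Elane* was named with all samples, and from the other lists up to 5 DEGs per direction with the smallest adjusted p-value, with *Cebpe*, *Gfi1*, *Cebpa*, *Cxcr2*, *Csf3r*, *Csf3*, *Mmp8* and *Mmp9* always named. The genes most alike averaged 10 CPM or more and had the smallest root mean square difference. Remaining primary granule genes, the untested stefin genes, *Lyz2*, *Col1a1*, *Col1a2*, *Laptm5*, *Nkg7* and the genes overlapping or copying a named gene were named after their values were seen.

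Gene positions came from the GENCODE M21 annotation, which held 52073 of the identifiers, and promoter windows from RefSeq (GRCm38.p6), with all 10 genes and 5 of 6 primary granule genes matched. Ratios were compared by exact permutation tests over samples. Alternatives were DESeq2 1.42.0, upper-quartile and library-total scaling, 2 other filters on low counts, a replicate block, the fold of 2 tested in the model, and each sample left out. Counts at the adjusted p-value alone and of the primary granule list were added after seeing the data.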

Additional observations from a re-analysis of the deposited data

How the results depend on the processing

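None of the 10 mature genes was a DEG under any alternative, and all 6 primary granule genes were upregulated DEGs under each. With the fold of 2 tested in the model, DEGs numbered 138 higher and 274 lower, against 531 and 802, and *Mpo* and *Elane* still passed (edgeR adjusted p-values 0.00167 and 0.00199). Mature genes past the adjusted p-value alone, 3 higher and 1 lower with all samples, numbered 1 to 6 higher and 0 to 1 lower with single samples left out, the 6 being without TranspCtrl replicate 1 and the 1 without TranspCtrl replicate 2, TranspExer replicate 2 or TranspExer replicate 3. The lower count was 0 with DESeq2, with no filter but 1 count and with the replicate block. *Ngp* passed in 12 of 12 alternatives without a fold threshold, *Lcn2* in 9 and *Ly6g* in 3. *Chil3* did not pass with upper-quartile scaling (edgeR adjusted p-value 0.0886), library-total scaling (0.0985) or the block (0.0547). Upper-quartile and library-total scaling moved the median log2 fold change of all genes from -0.02 to -0.10 and turned the sign of *Ltf* (to -0.00944 and -0.0168) and *Retnlg* (to -0.0214 and -0.0295), genes that did not pass the test under either. Leaving out single samples gave -0.12 to 0.30 for *Retnlg*, -0.43 to 0.25 for *S100a8* and -0.27 to 0.26 for *S100a9*. The causes of these shifts were not tested.

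The labels do not say whether equal replicate numbers were paired. Deviations from the group means correlated by 0.0247, -0.00167 and 0.0416 for numbers 1, 2 and 3. Not every sample correlated best with its own number. With 3 samples a group and TranspCtrl replicate 1 standing apart, these correlations cannot settle whether the samples were paired. With the number as a replicate block, 2 mature genes passed the adjusted p-value alone in place of 4. Among the 10 mature genes, *Ly6g* had the fewest counts, with 52 to 100 per sample.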
